A study of Homo sapiens with 6 samples.

Results

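Zinc handling was examined in C4-2B prostate cancer cells through 36 genes, which were all rows of the deposited expression table whose symbol matched the SLC30A carriers, the SLC39A carriers, the MT1 genes with a letter suffix, MT2A, MT3 or MTF1. The table holds 58024 genes, and the members comprised 10 SLC30A genes, 14 SLC39A genes, 11 metallothioneins and the transcription factor MTF1. C4-2B is a castration-resistant subline that descends from LNCaP cells passaged in castrated nude mice, and enzalutamide is an androgen receptor antagonist. The RNA-Seq experiment compared 3 libraries of parental cells, carried in the vehicle dimethyl sulfoxide, with 3 libraries of enzalutamide resistant cells. Resistance had been raised by exposure to rising enzalutamide from 1 to 20 µM over at least 6 months, surviving cells were pooled, and the culture was then held in 5 µM. The labels give the vehicle as 1%, whereas the methods give at most 0.1%, and the stated exposure to 10 µM enzalutamide before RNA extraction does not say clearly whether the parental cells received it. The sources do not say whether the 3 libraries of a group came from separate cultures, so that the p-values measure the spread between these libraries, which may be technical.

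Zinc enters the cytosol through the SLC39A proteins (ZIP carriers) from outside the cell or from organelles, and SLC30A proteins (ZnT carriers) move it out of the cytosol, into vesicles, organelles or the medium. Metallothioneins are small cysteine-rich proteins that bind zinc, copper and cadmium, and most of them lie side by side on chromosome 16. MTF1 is a zinc-sensing transcription factor that binds metal response elements (MREs) in the promoters of metallothionein genes and of SLC30A1. Normal prostate epithelium is known for a high zinc content, which goes with a high citrate content, and prostate cancer tissue is known to hold less zinc.

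Values were taken to be FPKM, since no source used here names the unit, that is a fragment count scaled by transcript length and library size, and summed to between 792975 and 870110 per library. The table gives no read counts. For genes with 1 transcript, the depth that each value would imply if it came from a lone read was computed (fragment length taken as 200 bases), and the most frequent result, taken as the depth, was 13600000 to 20700000 reads per library. That most frequent result held for only 39 of 3981 such genes in parental replicate 1 and 162 of 5716 in resistant replicate 0. These were the fewest and the most of any library, so the depth is a rough estimate. At that depth 1 read on a transcript of 400 bases, about the length of a metallothionein mRNA, is worth between 0.241 and 0.365 FPKM. A value of 0 is therefore given as listed at 0. Of 10 luminal prostate markers, all were above 0, with a summed level from 4151 to 4916 FPKM in the parental and from 1178 to 1262 FPKM in the resistant libraries, and 2 were higher and 6 lower in the resistant cells. The 7 neuroendocrine markers summed to between 7.07 and 11.3 FPKM in the parental and between 189 and 211 FPKM in the resistant libraries, although INSM1, a neuroendocrine transcription factor, was below the limit for testing. The summed levels of 5 fibroblast markers ran from 6.65 to 8.92 FPKM in the parental and from 8.26 to 14.7 FPKM in the resistant libraries, with DCN, at 0 in every parental library, and LUM higher and COL1A1, the most abundant in parental cells, not past the threshold at a log2 fold change of −0.66, and those of 4 leukocyte and 3 endothelial markers were at most 1.18 FPKM in every library. The part of these shifts in the results on zinc genes was not tested. In bulk RNA, fewer cells that express a gene and less RNA per cell cannot be told apart.

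Between resistant and parental cells, the metallothioneins MT1E, MT2A and MT3 were higher and MT1X was lower, whereas the vesicle carrier SLC30A4 and the importer SLC39A8 were lower and the importer SLC39A1 was higher. Genes were compared by limma after 0.1 was added to each FPKM and log2 taken, for the 24468 genes that averaged 0.1 FPKM or more, with Benjamini-Hochberg adjustment over all of them and a threshold of 0.05. Of the 36 members, 30 were tested, of which MT1A, MT1G and MT1L had no parental value above 0, met the filter through their resistant values alone and had to differ. Of the other 27, 17 passed the threshold, 7 of them higher and 10 lower in the resistant cells, which is 63.0%. Among all genes tested, 44.4% passed, with 22.1% higher and 22.3% lower, and among the 14787 protein-coding genes tested the share was 55.7%. Of those past the threshold, a change of at least 2-fold on the log2(FPKM + 0.1) scale was reached by 8 members, 4 higher and 4 lower, where 28.5% of all genes tested did so. The parental and resistant values did not overlap in 19 of these 27 members, against 54.8% of all genes tested. The median log2 fold change of the 27 members was 0.03, and that of all genes tested was −0.05. An exact permutation of 3 libraries against 3 for a single gene gives no two-sided p below 0.1.

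**Figure D1:**
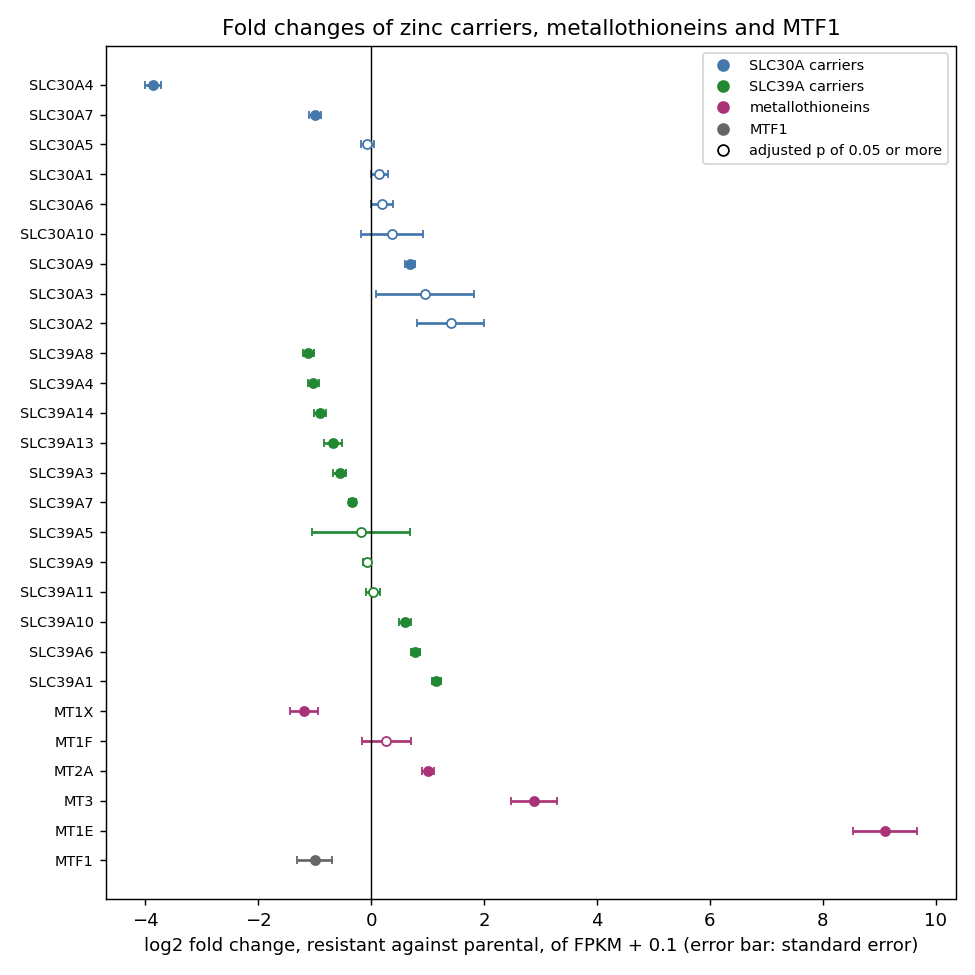
Log2 fold change of FPKM + 0.1 in resistant against parental cells (x axis) for the 27 tested members with a value above 0 in both groups, with bars for the standard error of the limma fit and open points for an adjusted p of 0.05 or more. SLC30A4 lies farthest to the left at −3.87 and MT1E farthest to the right at 9.10, and MT1A, MT1G and MT1L are left out because all their parental values were listed at 0.

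Of the 11 metallothioneins, 5 had values above 0 in both groups and were tested, of which MT1E, MT2A and MT3 were higher, MT1X was lower and MT1F did not pass the threshold. That is 4 of 5 genes, where 44.4% of all genes and 55.7% of protein-coding genes tested passed. MT1A, MT1G and MT1L had values in the resistant libraries only and are given as values, without a test, and the remaining 3 were at 0 or too low to be tested. The sum of the 11 genes was 107 ± 9.30 FPKM in the parental and 307 ± 24.8 FPKM in the resistant cells (SD, n = 3 each), a ratio of means of 2.87, and the 3 resistant sums, 320.2, 322 and 278 FPKM, all lay above the parental sums of 117, 100.5 and 102 FPKM. No test was run on the sum, which is given because close copies can exchange reads. Without MT1E the sum was 107 ± 9.38 FPKM in the parental and 183 ± 12.8 FPKM in the resistant cells (SD, n = 3 each), a ratio of 1.72.

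MT1E, a metal-inducible isoform on chromosome 16 (GRCh38, 56625475 to 56627112), was listed at 0.114, 0.422 and 0 FPKM in parental cells and at 129, 131 and 109 FPKM in the resistant libraries. The parental values are near what a lone read is worth on so short a transcript, and the groups were far apart. The MT1E log2 fold change was 9.10 (SE 0.56, Benjamini-Hochberg adjusted p = 6.88e-05 by limma). The size depends on the treatment of the low parental values, since MT1E differed by 6.73 on the log2 scale when 1 FPKM was added and by 10.56 when 0.01 FPKM was added. Leaving out 1 library at a time gave values from 8.52 to 9.71. MT1E made up at most 0.420% of the metallothionein sum in parental cells and 40.4%, 40.7% and 39.3% in the resistant libraries.

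MT2A, the most abundant metallothionein in both cell populations and the usual major form in human cells, lies on the same chromosome (56608584 to 56609497). It had 70.4, 59.5 and 68.4 FPKM in parental cells and 136, 143 and 119 FPKM in the resistant libraries. All resistant values exceeded all parental values. The mean of MT2A was 66.1 ± 5.79 in parental cells and 133 ± 12.2 FPKM in resistant cells (SD, n = 3 each), and its log2 fold change was 1.01 (SE 0.10, Benjamini-Hochberg adjusted p = 4.67e-04 by limma). Its share of the metallothionein sum was 59.9%, 59.2% and 66.8% in parental cells, and 42.5%, 44.4% and 42.9% in the resistant libraries, where MT1E stood almost level with it at a ratio of MT2A to MT1E from 1.05 to 1.09.

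MT1X moved the other way. This isoform, at the far end of the cluster (56682470 to 56684196), had 42.7, 38.2 and 30.1 FPKM in parental cells and 20.7, 17.5 and 11.3 FPKM in the resistant libraries, with no overlap. The log2 fold change of MT1X was −1.19 (SE 0.25, Benjamini-Hochberg adjusted p = 0.00883 by limma). The ratio of MT2A to MT1X went from 1.65, 1.56 and 2.27 in parental cells to 6.57, 8.15 and 10.5 in the resistant libraries. MT1X supplied from 29.4% to 38.02% of the metallothionein sum in parental cells and from 4.08% to 6.47% in the resistant libraries.

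MT1A and MT1G were listed at 0 in every parental library. MT1A (56638666 to 56640087) had 9.87, 11.0 and 11.9 FPKM in the resistant libraries. MT1G, encoded on the opposite strand of the cluster (56666730 to 56668065), had 13.3, 8.89 and 11.2 FPKM in the resistant libraries. The study chose MT1G for qRT-PCR from this same comparison, so that its values are not independent of that choice. By qRT-PCR, the paper reports MT1G as higher in the resistant cells. MT1L, annotated as a transcribed unprocessed pseudogene, was at 0 in the parental libraries and had 4.59, 1.51 and 3.02 FPKM in the resistant libraries. No fold change or test is given for these genes, whose parental values do not vary.

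MT3, known as the growth inhibitory factor of brain, was at 0.947, 0.770 and 0.344 FPKM in parental cells and at 4.04, 5.10 and 7.55 FPKM in the resistant libraries, again without overlap. MT3 had a log2 fold change of 2.89 (SE 0.41, Benjamini-Hochberg adjusted p = 0.00182 by limma). The MT1F values overlapped, with 3.34, 1.56 and 3.57 FPKM in the parental and 1.98, 3.73 and 4.51 FPKM in the resistant libraries, and the difference did not pass the threshold (log2 fold change 0.27, SE 0.43, Benjamini-Hochberg adjusted p = 0.640 by limma). MT1B and MT1H were listed at 0 in all libraries. MT1M had no parental value above 0 and stood at 0.129, 0.120 and 0 FPKM in the resistant libraries, too low to be tested.

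**Figure D2:**
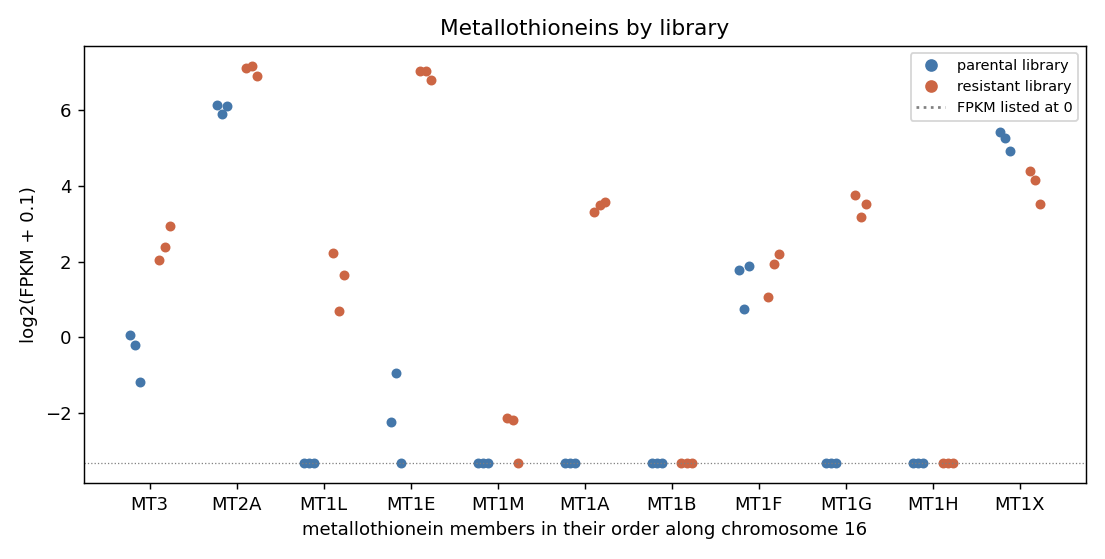
Level of each metallothionein member as log2(FPKM + 0.1) (y axis) in the 3 parental and 3 resistant libraries, with the genes in their order along chromosome 16 (x axis, not to scale) and a dotted line where FPKM is listed at 0. MT1L, MT1E, MT1A and MT1G go from at or near the dotted line to clearly above it in the resistant libraries, while neighbours such as MT1B and MT1H stay on the line and MT1X falls.

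**Figure D3:**
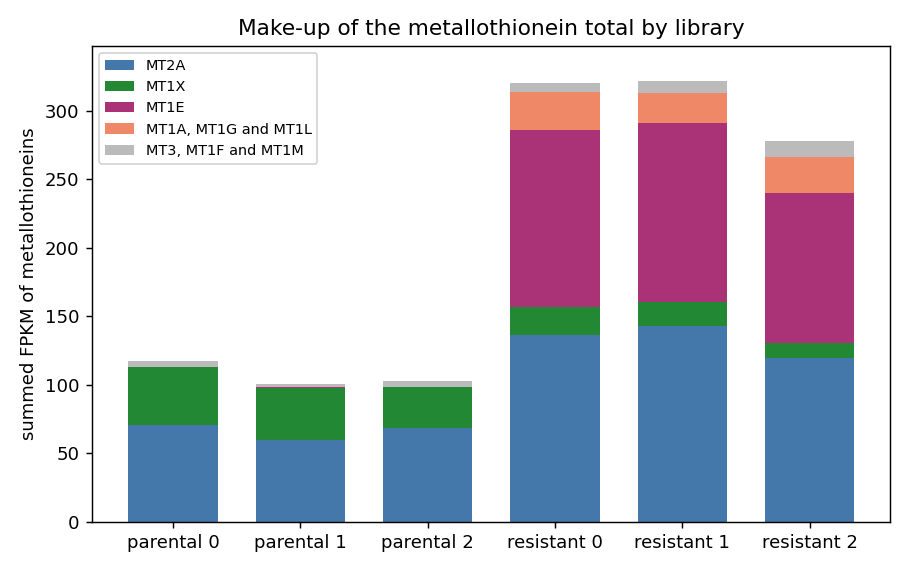
Summed FPKM of the metallothionein members in each library (y axis), divided by gene. The parental bars, from 100.5 to 117 FPKM, consist mainly of MT2A and MT1X, and the resistant bars, from 278 to 322 FPKM, consist mainly of MT2A and MT1E.

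Metallothionein mRNAs resemble each other, so it was counted how many of the 50-base stretches of each gene's transcripts (GENCODE v44) occur unchanged in a transcript of another, non-overlapping gene, 50 bases being the read length. For MT1E, 7.10% of the stretches were shared, mainly with MT1JP, MT1G and MT1M. The shares were 4.48% for MT2A, 3.73% for MT1X, 5.76% for MT1A and 16.4% for MT1G. MT1M had the highest share, 18.2%, and MT3 and MT1B had none. Most of the stretches of each gene therefore set it apart from its relatives by exact match. They were pooled over all annotated transcripts of the gene, so that the share within a single mRNA can be higher. How the authors' tool divided reads from shared stretches is not stated. Of the 10 other metallothionein genes and pseudogenes looked up, 6 were at 0 in all libraries, and MT1DP, MT1IP, MT1P1 and MT1XP1 had scattered values with at least 1 library at 0 in the resistant group and did not pass the threshold.

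MTF1, on chromosome 1 (37809574 to 37859592), had 10.6, 7.59 and 16.6 FPKM in parental cells and 5.02, 6.90 and 4.68 FPKM in the resistant libraries. The groups did not overlap, but the lowest parental value lay close to the highest resistant value. The log2 fold change of MTF1 was −1.00 (SE 0.31, Benjamini-Hochberg adjusted p = 0.0391 by limma). The call did not hold without parental replicate 0 or 2 or without any of the 3 resistant replicates, with adjusted p values in these fits from 0.0502 to 0.124 and log2 fold changes from −1.17 to −0.71. It was also lost without the variance trend (adjusted p = 0.0657) and without a filter on low values (adjusted p = 0.0515).

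The 250 bases before the transcription start, from RefSeq on GRCh38.p14, were searched on both strands for the core of the metal response element, TGCACNC or TGCGCNC, with overlapping matches counted apart. Windows were at hand for 26 of the 36 members. The metallothioneins MT1E, MT1A, MT1G, MT1L, MT3, MT1F and MT1M had no window, nor did SLC30A8, SLC39A4 and SLC39A14. MT2A is shown as a gene that rose, MT1X as a gene that fell and MT1H as a gene listed at 0, together with SLC30A4, the carrier with the largest decrease. Capitals mark the matches. MT2A is the plus strand of chr16:56608334-56608583, MT1X the plus strand of chr16:56682220-56682469, MT1H the plus strand of chr16:56669564-56669813, and SLC30A4 the minus strand of chr15:45522756-45523005.
MT2A: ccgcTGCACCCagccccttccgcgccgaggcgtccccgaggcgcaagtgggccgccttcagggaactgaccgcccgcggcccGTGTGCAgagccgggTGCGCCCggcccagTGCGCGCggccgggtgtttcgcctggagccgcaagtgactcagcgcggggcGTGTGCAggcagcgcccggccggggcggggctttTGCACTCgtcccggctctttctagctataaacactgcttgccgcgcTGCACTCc
MT1X: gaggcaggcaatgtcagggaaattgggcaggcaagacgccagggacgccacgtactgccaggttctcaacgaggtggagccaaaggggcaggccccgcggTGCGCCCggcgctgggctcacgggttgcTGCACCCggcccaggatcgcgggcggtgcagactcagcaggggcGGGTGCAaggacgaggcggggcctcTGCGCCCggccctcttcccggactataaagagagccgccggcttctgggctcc
MT1H: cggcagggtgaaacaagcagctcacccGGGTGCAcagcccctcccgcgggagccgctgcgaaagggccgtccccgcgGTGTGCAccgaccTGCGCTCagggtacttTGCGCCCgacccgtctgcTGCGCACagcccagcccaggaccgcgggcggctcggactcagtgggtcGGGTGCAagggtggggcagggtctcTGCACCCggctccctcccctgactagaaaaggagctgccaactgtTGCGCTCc
SLC30A4: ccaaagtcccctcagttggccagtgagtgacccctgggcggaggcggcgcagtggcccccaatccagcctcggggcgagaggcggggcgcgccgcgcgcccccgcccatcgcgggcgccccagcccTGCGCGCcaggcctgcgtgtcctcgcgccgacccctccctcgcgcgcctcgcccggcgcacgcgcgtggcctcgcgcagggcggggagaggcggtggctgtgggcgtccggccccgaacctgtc

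The window of MT2A held 7 matches, that of MT1X 4, that of MT1H 8 and that of MT1B 3, whereas 1.58% of the 35116 promoter windows in the table held 3 or more and 24.8% held at least 1. The metallothionein windows shared a match that begins 53 or 54 bases before the start, and MT1X, MT1H and MT1B shared another that begins 78 or 79 bases before it. Of the metallothioneins with a window, MT2A was at higher levels, MT1X at lower levels and MT1B and MT1H at 0 in the resistant cells. Those without a window, MT1E, MT1A, MT1G and MT3 among them, could not be searched. SLC30A4 and SLC30A1 held 1 match each, SLC30A2 held 3, and MTF1 held none. In all, 15 of the 35 windows of the members (42.9%) held at least 1 match, some of them alternative starts of 1 gene. The core of the antioxidant response element, TGACNNNGC, occurred in 10.9% of all windows, once each in those of MT2A, MT1X and MT1B, and not in that of MT1H. A match describes these letters only.

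Among the SLC30A carriers, 1 gene stood out. Of 10 genes, 9 were tested and 3 passed the threshold (33.3%, against 44.4% of all genes and 55.7% of protein-coding genes), SLC30A9 higher and SLC30A4 and SLC30A7 lower. SLC30A4, which loads zinc into endosomes and secretory vesicles, lies on chromosome 15 (45479606 to 45522755). It had 51.1, 54.2 and 49.5 FPKM in parental cells and 2.95, 4.08 and 3.40 FPKM in the resistant libraries. It thus went from the highest of the SLC30A genes to the sixth, and from between 28.2% and 28.9% of their summed FPKM to between 2.19% and 2.61%. The log2 fold change of SLC30A4 was −3.87 (SE 0.14, Benjamini-Hochberg adjusted p = 1.16e-05 by limma), and leaving out 1 library at a time gave −3.98 to −3.76. HMGN2P46, a pseudogene on the opposite strand of the SLC30A4 locus, had 8.73, 6.39 and 8.05 FPKM in the parental and 0.161, 0.141 and 0.399 FPKM in the resistant libraries. The kit marks strand, but whether the counting used it is not stated, so reads of the overlapping stretch may be shared.

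SLC30A7, a Golgi carrier that supplies zinc to alkaline phosphatases, was at 27.7, 27.5 and 27.5 FPKM in parental cells and at 12.1, 15.0 and 14.5 FPKM in the resistant libraries. The log2 fold change of SLC30A7 was −0.99 (SE 0.11, Benjamini-Hochberg adjusted p = 6.04e-04 by limma). SLC30A9, a mitochondrial zinc exporter, had 39.1, 40.0 and 37.2 FPKM in parental cells and 57.5, 69.4 and 61.9 FPKM in the resistant libraries. SLC30A9 had a log2 fold change of 0.69 (SE 0.09, Benjamini-Hochberg adjusted p = 0.00129 by limma), and it became the highest SLC30A gene of the resistant cells. Neither gene had overlapping values between the groups.

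The partners SLC30A5 and SLC30A6, which form a heterodimer in the early secretory pathway, did not pass the threshold. SLC30A5 had 43.3, 49.2 and 40.6 FPKM in the parental and 43.96, 45.5 and 37.3 FPKM in the resistant libraries, and SLC30A6 had 11.3, 16.1 and 11.9 FPKM and 12.1, 16.4 and 16.4 FPKM. SLC30A1, the plasma membrane exporter and an MTF1 target, likewise overlapped, with 3.98, 4.69 and 3.83 FPKM in the parental and 4.49, 4.49 and 4.84 FPKM in the resistant libraries (log2 fold change 0.15, SE 0.15, Benjamini-Hochberg adjusted p = 0.466 by limma). The carriers of specialised cells were low. SLC30A2, SLC30A3, known from synaptic vesicles, and SLC30A10, chiefly a manganese exporter, had means between 0.138 and 0.732 FPKM in either group and did not pass the threshold, although the SLC30A2 values did not overlap. SLC30A8 of insulin granules was listed at 0 in 4 of the 6 libraries and was not tested. The 10 SLC30A genes summed to 180.4 ± 10.7 FPKM in the parental and 144 ± 11.2 FPKM in the resistant cells (SD, n = 3 each), and without SLC30A4 to 129 ± 8.36 and 140.1 ± 10.6 FPKM.

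The SLC39A carriers included genes that were higher and genes that were lower in the resistant cells. Of 14 genes, 12 were tested and 9 passed the threshold (75.0%, where 55.7% of protein-coding genes did), 3 higher (SLC39A1, SLC39A6 and SLC39A10) and 6 lower (SLC39A3, SLC39A4, SLC39A7, SLC39A8, SLC39A13 and SLC39A14). The summed level, which was not tested, was 559.9 ± 20.8 FPKM in the parental and 524 ± 10.7 FPKM in the resistant cells (SD, n = 3 each). The direction depended on the scaling between libraries, since with median-of-ratios factors the means were 535 FPKM in parental and 538 FPKM in resistant cells and the groups overlapped.

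SLC39A1 (ZIP1), a plasma membrane importer regarded as a main route of zinc uptake in prostate cells, lies on chromosome 1 (153959099 to 153968184). It rose from 59.3, 53.0 and 53.1 FPKM in the parental libraries to 124, 130.4 and 114 FPKM in the resistant libraries, a log2 fold change of 1.15 (SE 0.08, Benjamini-Hochberg adjusted p = 1.23e-04 by limma). CREB3L4, which overlaps it on the opposite strand, had 105, 90.4 and 114 FPKM in parental and 68.4, 70.7 and 74.0 FPKM in resistant cells. SLC39A6 (LIV-1), on chromosome 18, rose from 59.5, 53.8 and 53.3 FPKM to 90.9, 101 and 94.1 FPKM (log2 fold change 0.78, SE 0.08, Benjamini-Hochberg adjusted p = 4.58e-04 by limma). Its close relative SLC39A10, with which it can form a heteromer, rose from 15.5, 14.4 and 13.7 FPKM to 20.4, 21.8 and 24.2 FPKM (log2 fold change 0.60). None of these genes had overlapping groups.

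Among the importers that fell, SLC39A8 and SLC39A14 are closely related carriers that also accept manganese. SLC39A8, on chromosome 4 (102251080 to 102431258), had 99.6, 109 and 90.3 FPKM in parental cells and 45.5, 48.5 and 44.2 FPKM in the resistant libraries, a log2 fold change of −1.11 (SE 0.09, Benjamini-Hochberg adjusted p = 2.02e-04 by limma). SLC39A14 had 87.9, 83.8 and 87.8 FPKM in the parental and 50.8, 47.9 and 40.4 FPKM in the resistant libraries (log2 fold change −0.90). SLC39A4, the carrier of intestinal zinc uptake, had 27.1, 30.7 and 27.5 FPKM and 14.2, 14.4 and 13.2 FPKM (log2 fold change −1.02, SE 0.09, Benjamini-Hochberg adjusted p = 3.07e-04 by limma). The resistant values of all of these lay below the parental values.

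SLC39A3, a plasma membrane importer related to SLC39A1, had 67.0, 70.7 and 58.8 FPKM in the parental and 44.5, 39.2 and 50.2 FPKM in the resistant libraries (log2 fold change −0.55). SLC39A7, which releases zinc from the endoplasmic reticulum, had the smallest change among the members past the threshold, with 83.2, 76.6 and 76.6 FPKM against 61.9, 64.2 and 61.5 FPKM (log2 fold change −0.33, SE 0.07, Benjamini-Hochberg adjusted p = 0.00815 by limma). The SLC39A7 call was lost with median-of-ratios scaling (adjusted p = 0.0514) and without the variance trend (adjusted p = 0.0610). SLC39A13, a carrier of the early secretory pathway, had 11.2, 9.76 and 10.2 FPKM against 7.44, 5.35 and 6.86 FPKM (log2 fold change −0.67), and its call was lost without parental replicate 0 (adjusted p = 0.0540).

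SLC39A9, which is also described as a membrane androgen receptor, did not pass the threshold. It had 48.8, 49.3 and 47.0 FPKM in the parental and 43.8, 46.8 and 46.9 FPKM in the resistant libraries, without overlap (log2 fold change −0.08, SE 0.07, Benjamini-Hochberg adjusted p = 0.393 by limma). SLC39A11 overlapped, with 16.2, 16.8 and 17.6 FPKM against 19.8, 14.7 and 17.6 FPKM. SLC39A5 was above 0 in 1 library of each group, at 0.376 and 0.228 FPKM, and did not pass the threshold. SLC39A2 was not tested, with values from 0 to 0.260 FPKM, and SLC39A12 was listed at 0 in all libraries.

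The order of the importers also differed. In the parental cells SLC39A8 and SLC39A14 led by mean and together gave from 32.6% to 34.0% of the summed SLC39A level, and in the resistant cells they gave from 16.5% to 18.4%. SLC39A1 and SLC39A6 gave from 18.8% to 20.6% in the parental libraries, where their values overlapped, and from 40.5% to 43.3% in the resistant libraries, where SLC39A1 stood above SLC39A6 in each library. The ratio of SLC39A1 to SLC39A8 was 0.595, 0.486 and 0.588 in the parental and 2.73, 2.69 and 2.58 in the resistant libraries.

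**Figure D4:**
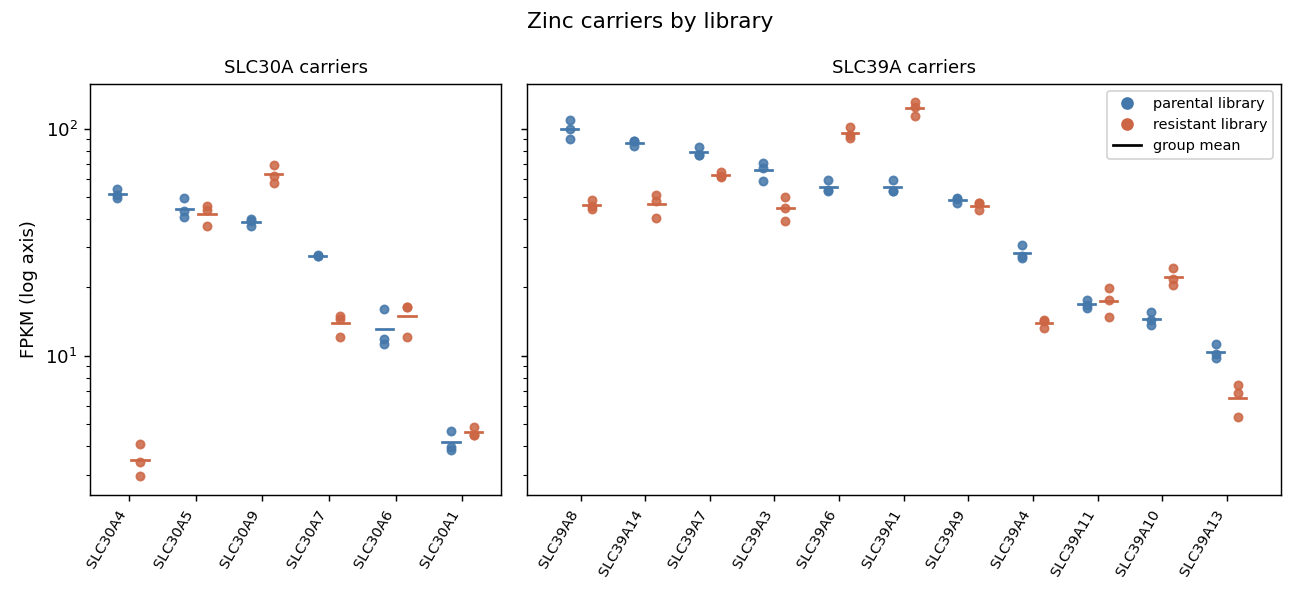
FPKM (y axis, log scale) of the SLC30A and SLC39A carriers that averaged 1 FPKM or more, with a point for each of the 3 parental and 3 resistant libraries, a line for each group mean, and genes ordered by their parental mean (x axis). SLC30A4 falls from between 49.5 and 54.2 FPKM to between 2.95 and 4.08 FPKM, and SLC39A1 and SLC39A6 rise above SLC39A8 and SLC39A14 in the resistant libraries.

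Genes that share metals or metabolism with the zinc genes were looked up as lists, whose shares of called genes are read against the 44.4% of all genes and 55.7% of protein-coding genes called. Of 8 genes of citrate metabolism, 7 were tested, 1 was higher and 2 were lower in the resistant cells, with a median log2 fold change of −0.21. Citrate synthase CS was slightly higher (log2 fold change 0.24), and IDH2 and ACLY were lower (−1.24 and −0.94). Of 10 genes of copper handling, 1 was higher (SLC31A2, log2 fold change 1.09) and 5 were lower, with a median of −0.33. The copper chaperone ATOX1 fell from 149.6 ± 14.3 to 56.1 ± 10.1 FPKM (SD, n = 3 each) and the importer SLC31A1 from 21.4 ± 1.60 to 13.5 ± 0.478 FPKM. Of 7 genes of the oxidant and metal response, 1 was higher (GCLC) and 4 were lower, with a median of −0.74. Heme oxygenase HMOX1, which cadmium and other metals induce, fell from 15.8 ± 3.02 to 3.21 ± 0.172 FPKM (SD, n = 3 each), and NQO1 fell from 233 ± 20.4 to 41.9 ± 6.71 FPKM. Of 6 zinc-dependent enzymes, 4 were tested, 1 was higher and 2 were lower. The alkaline phosphatase ALPL was at 0.0799 ± 0.110 FPKM in the parental and 6.60 ± 0.707 FPKM in the resistant cells (SD, n = 3 each), and CA12 and FOLH1 were lower. TMEM163, a zinc transporter outside the SLC families, did not pass the threshold.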

How the data were processed

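The data comprised 6 RNA-Seq libraries, 3 from parental C4-2B and 3 from enzalutamide resistant cells. The authors state TrimGalore 0.4.3 for trimming of the 50 bp single-end reads, STAR 2.5.3 for alignment to GRCh38 with GENCODE v25, and Cufflinks 2.2.1 for differential expression. The submitters' processing notes name mm10 and Trimmomatic 0.27 instead, while the gene identifiers and positions are human. Neither the table nor the methods name the unit of the deposited values, which were taken to be FPKM from their form (fractional, with unequal totals) and from the naming of Cufflinks. The scaling between libraries is not given in the sources used here. No libraries were identical.

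Log2(FPKM + 0.1) was fitted, for genes averaging 0.1 FPKM or more, with limma 3.58.1 in R 4.3.3 (moderated test with a mean-variance trend, two-sided, Benjamini-Hochberg over all genes tested, threshold 0.05). In simulated data with 200 of 24468 genes changed, the fit recovered 50 of the changed genes. In the real data 44.4% of the genes tested passed, so that this recovery rate does not carry over to them. A gene short of the threshold is still not shown to be unchanged. All 36 members are accounted for, with full statistics for those past the threshold at 2-fold or more and at least 1 FPKM in a group. The members and lists were chosen with earlier results of these data known. Gene positions are from GENCODE v44. Tables were handled with Python 3.11.15, pandas 2.3.3 and numpy 2.4.6, and figures drawn with matplotlib 3.10.9. The alternatives covered the pseudocount, the filter, the scaling, the variance trend, the replicate number as a block, the thresholds and each library left out. Results for 2 genes of these lists are not reported here. Without read counts, no count model and no counting interval was possible.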

Additional observations from a re-analysis of the deposited data

How the results depend on the processing

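Among the settings tried, only the requirement of at least a 2-fold change moved the number of calls by over 1.5 times. Counting the genes at 0 in parental cells, it left 6979 of 10868 genes, 11 of 20 members, 1 of 3 SLC30A carriers and 3 of 9 SLC39A carriers, and all 7 metallothioneins. Here and below, member and metallothionein counts include MT1A, MT1G and MT1L, which were at 0 in every parental library and had to differ. Of the 5 metallothioneins with values in both groups, 4 passed in the main fit. With each library left out, 9303 to 10190 genes, 19 to 20 members, 3 to 4 SLC30A carriers, 8 to 9 SLC39A carriers and 7 metallothioneins passed, and the summed metallothionein level in resistant minus parental cells ranged from 192 to 214 FPKM around 199.9 FPKM. The smallest member count under any other setting was 18. Median-of-ratios scaling shifted the median log2 fold change of all genes by 0.101, and no member past the threshold changed direction under any setting. Reversals were limited to members short of the threshold: SLC30A5 had a log2 fold change of 0.03 under both quantile and median-of-ratios scaling (0.027 and 0.034), 0.0058 without parental replicate 1 and 0.016 without resistant replicate 2 (range −0.13 to 0.016 over single libraries left out); SLC39A9 had 0.030 and 0.027 under the same scalings; SLC30A10 had −0.057 under quantile scaling; MT1F had −0.096 without parental replicate 1 (range to 0.61); SLC39A11 had −0.066 without resistant replicate 0 (range to 0.15); and SLC39A5 had 0.11 without resistant replicate 0 or 1 (range from −0.55). SLC30A2 passed without parental replicate 0 (log2 fold change 1.97, Benjamini-Hochberg adjusted p = 0.0278 by limma). Chosen after seeing the data, rescaling of the carrier sums turned the SLC39A difference, resistant minus parental, from −36.0 to 2.995 FPKM with median-of-ratios factors and left it at −20.4 FPKM with the protein-coding total, while the SLC30A difference went from −36.8 to −25.1 and −32.6 FPKM. The cause of these shifts was not tested. With the replicate number as a block, 9463 genes, 19 members, 3 SLC30A carriers, 9 SLC39A carriers and 7 metallothioneins passed, and MTF1 did not (adjusted p = 0.0876). Same-numbered libraries did not deviate together (correlations 0.00802, 0.0165 and −0.00301 across genes). Whether libraries of the same number were cultured or prepared together cannot be told from these correlations, and the sources do not say. The estimated depth limits what can be said of genes near or below the value of 1 read, MT1E in parental cells and MT1M among them.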
